A study of Homo sapiens with 12 samples.

Results

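The cadherin genes CDH1, CDH2, CDH4, CDH5, CDH11, CDH13 and CDH15 were followed through 12 two-colour arrays of Rh30, an established human alveolar rhabdomyosarcoma line that carries the PAX3-FKHR (PAX3-FOXO1) fusion. The members were the gene probes whose name in the scanner files equals one of these 7 symbols, 7 of 30238 names on the array, which gave 9 probes of 41000: 3 for CDH4 and 1 for each of the other genes. Parental untransfected Rh30 (WT) was compared with a control clone carrying a non-targeting shRNA (CON) and with KD1, a clone in which an shRNA lowers PAX3-FKHR. Both clones carry a retroviral vector with puromycin resistance and were kept in puromycin at 1 μg/mL, and WT was not. KD1 and CON are 1 clone each, so that a difference between the clones and an effect of the knockdown cannot be told apart. All cells were grown for 24 h before RNA was taken. Each of the 3 comparisons (KD1 vs CON, KD1 vs WT, WT vs CON) was made in 2 biological replicates with the dyes swapped on a second array, which makes 4 arrays per comparison and 6 RNA extracts that are each on 4 arrays. Nothing in the sources used here says how the replicate cultures were separated, so the p-values measure the spread between these extracts.

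Cadherins are calcium-dependent adhesion proteins that bind the same cadherin on the neighbouring cell, and the classical ones hold on to the actin skeleton through catenins bound to their cytoplasmic tail. CDH15 (M-cadherin) and CDH2 (N-cadherin) are the cadherins best known from myoblasts, where they join cells that align and fuse. CDH4 (R-cadherin) is a close relative of CDH2, CDH1 (E-cadherin) is the adhesion protein of epithelia, CDH5 (VE-cadherin) that of endothelium and CDH11 (OB-cadherin) that of mesenchymal cells and bone. CDH5 and CDH11 belong to the type II branch, and CDH13 (T-cadherin) lacks the cytoplasmic tail and is held in the membrane by a lipid anchor, so CDH13 is not a classical cadherin in the strict sense.

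The close relation of CDH2 and CDH4 is visible in the probes themselves, and it matters because 1 of them was bright and the other was not. The CDH2 probe lies at chr18:23786079-23786138 (minus strand, build NCBI36) and a CDH4 probe at chr20:59945361-59945420 (plus strand), and both cover the end of the coding sequence. The stretches below run from a shared start to the stop codon, with capitals where the bases are identical at the same position, which holds for 17 of the 24 positions compared.
CDH2: ATGTATGGtGGaGGTGAtGActga
CDH4: ATGTATGGaGGtGGTGAaGAggattga
The probes of the other genes lie on the long arm of chromosome 16: CDH11 at chr16:63538370-63538429, CDH5 at chr16:64994895-64994954, CDH1 at chr16:67426715-67426774, CDH13 at chr16:82387528-82387587 and CDH15 at chr16:87789340-87789399.

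Across the arrays, 71.1% to 73.6% of the gene spots were well above background in Cy3 and 64.4% to 67.8% in Cy5. The lists of marker genes named here were chosen with earlier results of these data known. Of 8 myogenic markers, 7 (MYOD1, MYOG, MYF5, DES, CHRNA1, CHRND and CHRNG) were well above background in all 24 channel values, and MYF6 was so in 3. MYOG, the muscle differentiation factor, was lower in WT than in CON, by 1.73 ± 0.33 on the log2 scale (SD, n = 2, limma adjusted p = 0.0185). Without any 1 of the 4 WT and CON extracts, 1 ratio remained (-1.96 or -1.49). The call was then lost, but 1 ratio cannot show that it rests on a given extract. With all extracts kept, the call was lost after normexp background correction with loess (limma adjusted p = 0.110). It was also lost in a fit without pairing by replicate (limma adjusted p = 0.196). MYOG was also lower in KD1 than in CON, at -1.35 and -0.92, just short of the threshold (limma adjusted p = 0.0508). MYF5 went the other way in WT vs CON, at 1.84 and 1.33, and was not called (adjusted p = 0.0955). The median ratio of the 7 tested myogenic genes was -0.07 (KD1 vs CON), 0.50 (KD1 vs WT) and -0.25 (WT vs CON). Without WT replicate 2 the last 2 medians were 0.01 and -0.11. No probe for the fusion junction was analysed here. The probes of the joined genes had log2 ratios of -0.39 and -0.46 for PAX3 and -0.26 and -0.58 for FOXO1 when KD1 was set against CON. Against WT they were -0.45 and -0.33 for PAX3 and -0.79 and -0.41 for FOXO1. All 8 values were below 0, none of the 4 means passed the adjusted threshold, and these probes were not designed to tell the fusion from the normal genes.

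A single extract stood apart in a way that touches CDH1. In the RNA of WT replicate 2, EPCAM, an epithelial surface protein, had a log2 signal of 7.36, against 1.77 to 1.98 in the other 5 extracts, in none of which it rose well above background. KRT19, an epithelial keratin, was at 8.79 in it and at 4.71 to 5.61 elsewhere. Neither gene shared this between the WT replicates. The other 5 epithelial markers (KRT8, KRT18, CLDN4, CLDN7 and ESRP1) were well above background in all 6 extracts on at least 3 of 4 arrays. The summed signal of the list was 3769 in WT replicate 2 and 1811 to 2746 in the other 5, with the 2746 in WT replicate 1. KRT18, a further epithelial keratin, was higher in both WT extracts (10.40 and 10.72) than in KD1 and CON (9.36 to 9.79), so the sum is not particular to WT replicate 2. In WT replicate 2, 12 probes were at least 8-fold above both partner extracts while the ratios of WT replicate 1 were within 2-fold, among them EPCAM and the glandular epithelial genes AGR2, PIGR, TFF1 and VIL1. The same count was 14 for KD1 replicate 2, with RSAD2 and OLAH the furthest apart, and 0 for each of the other 4 extracts. By this count KD1 replicate 2 stood apart as well, and every KD1 ratio of replicate 2 involves it. The part of the WT replicate 2 signal in the results on WT was not tested, so values are given with and without WT replicate 2 where they rest on it. Without it, the ratio of any gene that involves WT is the value given for replicate 1. The replicate 2 extract of the other culture then drops out too, so a change in a ratio or median cannot be assigned to either extract.

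No cadherin member differed between the cultures at an adjusted p under 0.05 in any of the 3 comparisons. CDH15, CDH13, CDH11 and CDH2 were well above background in all 24 channel values and could be tested in every comparison, while CDH1, CDH4 and CDH5 were too dim on at least 1 array of each comparison to be tested. The count was thus 0 of 4 tested member probes in KD1 vs CON, where 1.79% of 21937 tested probes were called by limma after Benjamini-Hochberg adjustment. It was 0 of 4 in KD1 vs WT, with 1.05% of 24884 called, and 0 of 4 in WT vs CON, with 1.37% of 26595 called. At these backgrounds a count of 0 among 4 probes says little. At an unadjusted p under 0.05, 0, 1 and 1 of the 4 passed in the 3 comparisons in that order, where 17.2%, 17.2% and 16.5% of all tested probes did. The value past that threshold was CDH13 in both cases. The median ratio of the 4 members on the log2 scale was 0.07 (KD1 vs CON), -0.26 (KD1 vs WT) and 0.29 (WT vs CON), beside -0.01, 0.01 and -0.03 over all tested probes. Without WT replicate 2 the medians of the members were -0.53 (KD1 vs WT) and 0.62 (WT vs CON). The selection criteria of the study were read here as at least 2-fold in both KD1 comparisons in the same direction on all arrays. They were met by 0 of the 7 genes.

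**Figure D1:**
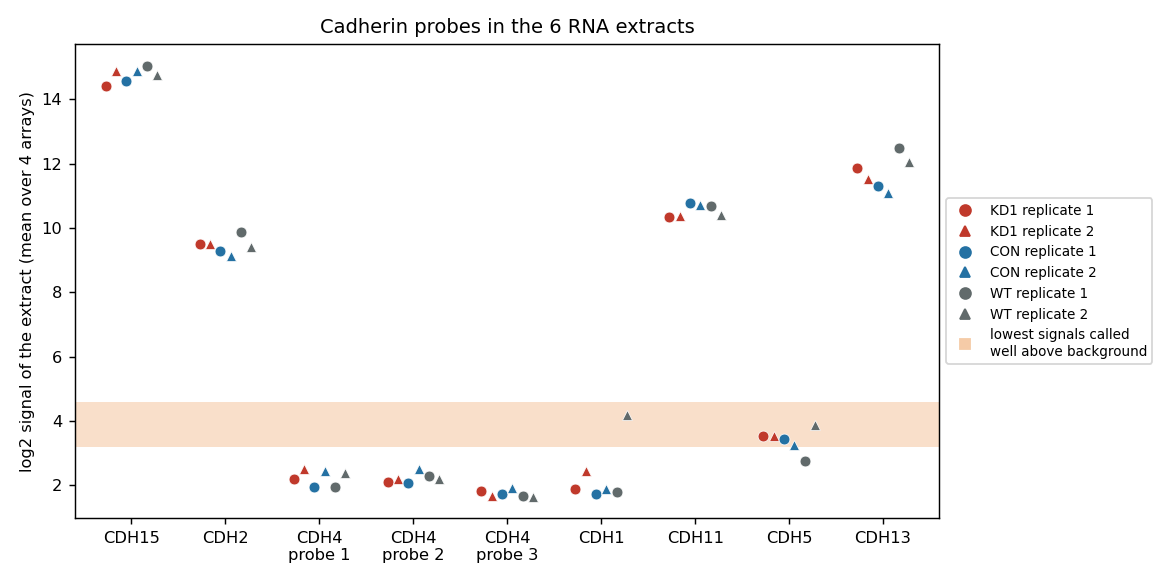
Log2 signal of the 9 cadherin probes in each RNA extract, as the mean over the 4 arrays that hold it; colours mark the cultures, circles replicate 1 and triangles replicate 2, and the band spans the lowest signals called well above background, from 3.20 to 4.60. CDH15, CDH2, CDH11 and CDH13 lie far above the band, the CDH4 probes lie below it, CDH1 enters it only in WT replicate 2, and signals of different probes are not comparable as amounts of RNA.

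CDH15, the muscle cadherin, was bright in every extract and gave no ordered difference between the cultures. Its log2 signal, the mean over the 4 arrays of an extract, was 14.42 and 14.87 in the KD1 extracts, 14.57 and 14.87 in CON, and 15.04 and 14.74 in WT. The replicates of a culture lay apart by as much as the cultures did, and the ranges of KD1 and CON overlapped. In KD1 vs CON the log2 ratio was -0.16 in replicate 1 and -0.07 in replicate 2, with a mean of -0.12 ± 0.07 (SD, n = 2), a 95% interval from -0.75 to 0.52 and a limma adjusted p of 0.890.

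The other CDH15 comparisons turned with the replicate. KD1 vs WT gave -0.78 in replicate 1 and 0.15 in replicate 2, and WT vs CON gave 0.63 and -0.27. Within each replicate the dye-swap arrays differed by no more than 0.29 in these comparisons, so the 2 replicates disagreed by more than the arrays of a pair. The mean was -0.31 (95% interval -0.96 to 0.33, limma adjusted p = 0.614) in KD1 vs WT and 0.18 (-0.47 to 0.83, adjusted p = 0.799) in WT vs CON. Without WT replicate 2 the values were those of replicate 1, with CDH15 lower in KD1 than in WT, and without WT replicate 1 the direction was the opposite.

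CDH2, which shares the myoblast surface with CDH15, was lowest in the control clone. Its log2 signal was 9.51 in both KD1 extracts, 9.28 and 9.12 in CON, and 9.86 and 9.41 in WT. Both CON extracts lay below all others, and KD1 lay inside the range of WT. The log2 ratio was 0.20 and 0.31 for KD1 against CON and 0.61 and 0.20 for WT against CON, above 0 on all 4 arrays of each comparison. Neither mean passed the test, at 0.26 (95% interval -0.24 to 0.76, limma adjusted p = 0.608) and 0.41 (-0.12 to 0.93, adjusted p = 0.412). The KD1 vs CON value fell to -0.02 when arrays were centred on their median in place of the deposited lowess scaling. In KD1 vs WT the replicates gave -0.48 and 0.07, with a mean of -0.21 ± 0.39 (SD, n = 2) and a limma adjusted p of 0.686, and the direction turned when replicate 1 of either culture was left out.

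CDH4 was not well above background in any of the 24 channel values of any of its 3 probes. The log2 signals of the 6 extracts ran from 1.96 to 2.50, from 2.06 to 2.50 and from 1.65 to 1.93 for the 3 probes, below the lowest signals called well above background, which lay between 3.20 and 4.60. The first of these probes is the one that shares the stretch shown above with CDH2, and it remained at background while the CDH2 probe did not. At this signal the ratios are between background values, and arrays of a dye-swap pair differed by up to 4.08 on the log2 scale for the second probe, so no direction is given.

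CDH1 was at background in KD1, in CON and in WT replicate 1. Its probe is printed 10 times on each array, so an extract has 40 spots. The number of spots well above background was 0 of 40 in both CON extracts, in KD1 replicate 1 and in WT replicate 1, it was 1 of 40 in KD1 replicate 2, and it was 20 of 40 in WT replicate 2. The 20 spots were all 10 of each of the 2 arrays on which WT replicate 2 was labelled with Cy3, and none was on the 2 arrays where it was labelled with Cy5.

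The CDH1 signal itself was raised in WT replicate 2 with both dyes. The mean processed signal of the spots was 12.7 and 14.4 on the Cy5 arrays and 22.1 and 33.1 on the Cy3 arrays, against 2.15 to 7.91 over all arrays of the other 5 extracts. Among those, KD1 replicate 2 had 5.04 to 7.91 and the rest 2.15 to 5.02. On the log2 scale the level was 4.18 in WT replicate 2 and 1.78 in WT replicate 1, while KD1 had 1.88 and 2.46 and CON 1.73 and 1.89. WT vs CON was accordingly 0.10 in replicate 1 and 2.21 in replicate 2, and KD1 vs WT was 0.18 and -1.71. KD1 vs CON, a ratio between background values, was 0.09 and 0.70. Averaged, WT had 1.16 more than CON, a value that rests on 1 extract: without WT replicate 2 it was the 0.10 of replicate 1. No bound on the fold could be set, because the mean of the WT extracts, 2.98, lay under the background limit of 3.93 in CON and 3.82 in KD1.

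The extract with the higher CDH1 signal was thus the one in which EPCAM and KRT19 were high. CDH17, a cadherin of intestinal epithelium, was at 1.94 in it and well above background in none of the 24 channel values. CDH3 (P-cadherin), which epithelia also use, had 4.89 in WT replicate 2, inside the 4.49 to 5.31 of the other extracts.

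**Figure D2:**
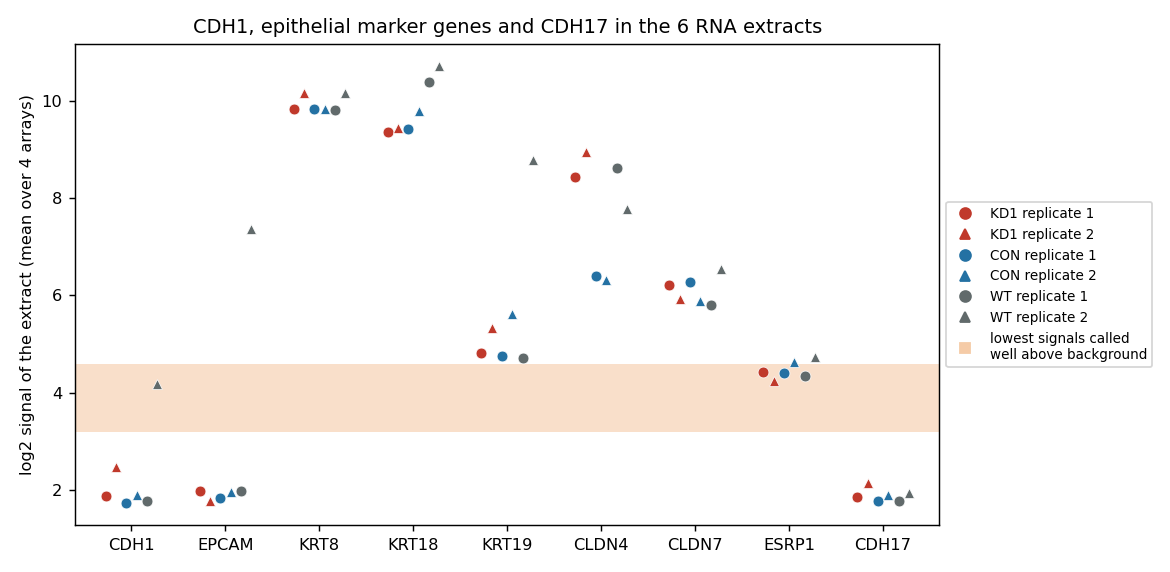
Log2 signal of CDH1, the 7 epithelial markers and CDH17 in each extract (mean over 4 arrays), with colours for the cultures, circles for replicate 1, triangles for replicate 2 and a band for the lowest signals called well above background. In WT replicate 2 CDH1 reaches 4.18, EPCAM 7.36 and KRT19 8.79, above all other extracts, and CDH17 stays at background.

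CDH11, the mesenchymal cadherin, had its lowest levels in KD1. The log2 signal was 10.35 and 10.38 in KD1, 10.76 and 10.71 in CON, and 10.69 and 10.39 in WT. KD1 and CON were apart, WT replicate 1 was near CON, and WT replicate 2 was near KD1. The log2 ratio in KD1 vs CON was -0.39 and -0.38, below 0 on all 4 arrays, with a mean of -0.39 ± 0.01 (SD, n = 2), an SE from the fit of 0.19 and a 95% interval from -0.84 to 0.06. This did not pass the test (limma adjusted p = 0.363), in which the spread of each probe is drawn towards that of all probes. KD1 vs WT gave -0.33 and -0.07 (adjusted p = 0.668), and WT vs CON gave -0.12 and -0.33 (adjusted p = 0.640).

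CDH5, the endothelial cadherin, stayed near background. It was well above background in 3 of 8 channel values of KD1, 3 of 8 of CON and 2 of 8 of WT, and its log2 signal was 3.55 and 3.53 in KD1, 3.45 and 3.25 in CON, and 2.76 and 3.87 in WT. The WT extracts enclosed all others. WT vs CON was -0.997 in replicate 1 and 0.44 in replicate 2, and the gap between arrays of a dye-swap pair reached 2.33, so no direction is given. Of the 6 endothelial markers, KDR, the VEGF receptor, stayed at background throughout, while PECAM1, VWF, CLDN5 and ESAM were well above background in all 24 channel values. None of the tested endothelial markers was called, and their median ratio was -0.28 over 2 genes (KD1 vs CON), 0.86 over 4 (KD1 vs WT) and -0.50 over 5 (WT vs CON). Without WT replicate 2, and so also without KD1 or CON replicate 2, the last 2 medians were 0.42 and -0.57. Between the KD1 replicates VWF went from 6.89 to 9.35 and CLDN5 from 9.59 to 11.15, while ESAM went from 5.55 to 4.79. In WT, VWF was at 5.86 and 5.66, CLDN5 at 8.93 and 8.72 and ESAM at 5.30 and 5.12.

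CDH13 was the member with the clearest order: highest in WT, lower in KD1 and lowest in CON. Its log2 signal was 12.47 and 12.05 in WT, 11.86 and 11.52 in KD1, and 11.31 and 11.07 in CON. No culture overlapped another, and within each replicate the order was the same. The WT vs CON log2 ratio was 1.15 in replicate 1 and 0.92 in replicate 2, with a lowest array of 0.89 and a highest of 1.15. The mean of 1.03 ± 0.16 (SD, n = 2), which is 2.04-fold, had an SE of 0.20, a 95% interval from 0.56 to 1.50, an unadjusted p from limma of 0.00113 and an adjusted p of 0.0618. It was the only tested member with a mean of 2-fold or more, beside 4.57% of all probes tested in WT vs CON.

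The KD1 ratios of CDH13 lay between. KD1 vs WT was -0.57 and -0.54, below 0 on all 4 arrays, with a mean of -0.56 (95% interval -1.02 to -0.10, limma adjusted p = 0.216). KD1 vs CON was 0.49 and 0.36, above 0 on all 4 arrays, with a mean of 0.43 (-0.02 to 0.87, adjusted p = 0.311). KD1 was thus below one reference and above the other in both replicates. Neither mean reached 2-fold, at 1.47-fold below WT and 1.34-fold above CON. The direct KD1 vs CON ratio differed from the sum of the other 2 ratios by -0.08 in replicate 1 and -0.02 in replicate 2. Without WT replicate 2, WT vs CON was 1.15 and KD1 vs WT was -0.57, each a single ratio.

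**Figure D3:**
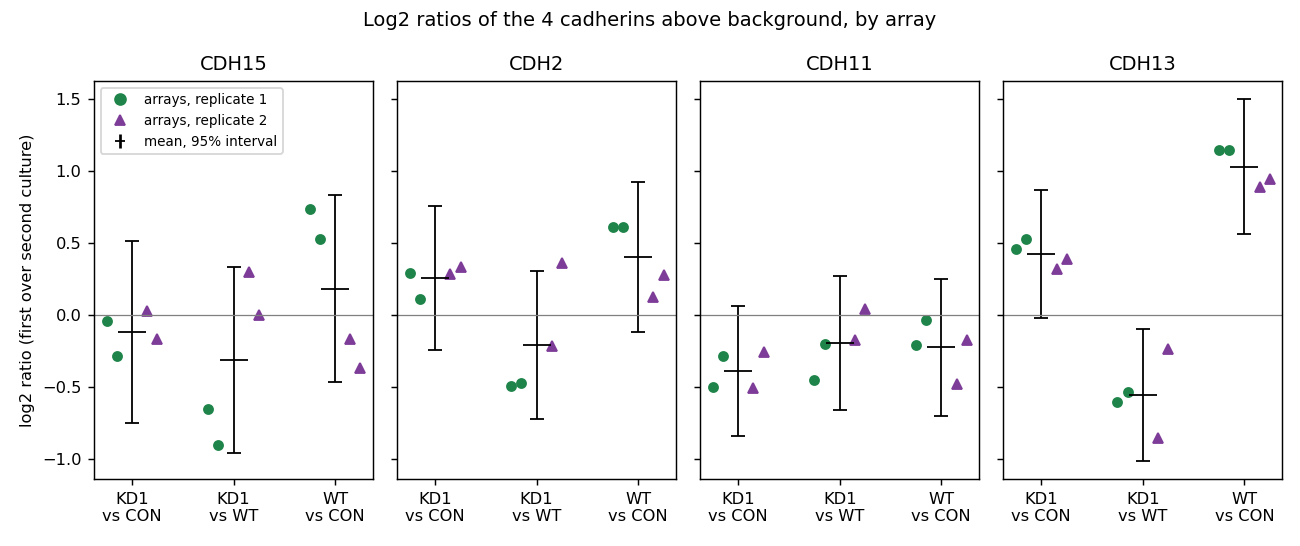
Log2 ratios of the 4 cadherins above background in the 3 comparisons; green circles are the arrays of replicate 1, purple triangles those of replicate 2, and bars give the mean of the replicates with its 95% interval from limma. CDH13 lies above 0 on all arrays that hold CON and below 0 on all that set KD1 against WT, while the CDH15 replicates fall on opposite sides of 0 in both comparisons with WT.

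Separation of the extracts is common in this design and is no result about the members on its own. In KD1 vs CON the extract levels of 3 of the 4 tested members (CDH2, CDH11 and CDH13) did not overlap, where this held for 47.9% of all tested probes. Between KD1 and WT it was 2 of 4 (CDH11 and CDH13) beside 43.0%, and between WT and CON 3 of 4 (CDH2, CDH11 and CDH13) beside 48.1%. In all 3 comparisons it held for CDH11 and CDH13, beside 14.4% of 21870 probes. For CDH11 the nearest WT extract was at 10.39 and the nearest KD1 extract at 10.38, so its separation of these cultures is within the spread of either.

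The genes whose 6 replicate ratios were nearest to those of each tested member, among genes tested in all 3 comparisons, are listed by Euclidean distance on the log2 scale. For CDH13 they were CYB5R3 (0.20), a cytochrome b5 reductase, MYH9 (0.23), the heavy chain of non-muscle myosin, and CFHR3 (0.31), where the median distance of all genes was 2.00. For CDH15 they were OGT (0.13), LEPROT (0.14) and SYVN1 (0.15), with a median of 1.42. For CDH2 they were NBPF14 (0.08), LRPAP1 (0.10) and TAPBP (0.11), with a median of 1.29. For CDH11 they were WHAMM (0.08), ZBTB4 (0.12) and GFM2 (0.14), with a median of 1.13.

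On the long arm of chromosome 16, the genes between CDH11 and CDH15 had a median log2 ratio of 0.03 over 205 genes (KD1 vs CON), 0.11 over 229 (KD1 vs WT) and -0.09 over 241 (WT vs CON). CDH13, which lies among them, had the opposite sign to this median in the last 2 of these.

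Among the other type I and II cadherins, CDH6 (K-cadherin, known from fetal kidney) was the 1 gene called, in KD1 vs WT. Of the 12 genes, 4 were tested in that comparison, where 1.05% of all tested probes were called. In KD1 vs CON 4 were tested and in WT vs CON 5, with none called. Its log2 signal was 4.55 and 5.45 in KD1, 6.38 and 7.49 in CON, and 9.21 and 8.58 in WT, so KD1 was lowest in both replicates and WT highest. KD1 vs WT was -4.87 and -3.06, a mean of -3.96 ± 1.28 (SD, n = 2) that passed the test (limma adjusted p = 0.00893). The call was lost with 3 residual degrees of freedom (limma adjusted p = 0.0540) and after normexp background correction with loess (-1.79, adjusted p = 0.129). It was also lost without WT replicate 1 but kept without KD1 replicate 1, and both fits left only the -3.06 of replicate 2. Without either replicate 2 extract it was kept, at -4.87. A single ratio cannot show that the call rests on a given extract. KD1 vs CON was -1.61 and -2.00 (adjusted p = 0.0848) and WT vs CON was 2.85 and 1.29 (adjusted p = 0.0662), and neither passed. CDH6 is on the list of genes that the study selected on these samples, so its direction is not independent evidence.

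CDH6 shared with CDH13 the highest level in WT, but not the order of the clones: KD1 was below CON in CDH6 and above it in CDH13, in both replicates. CDH7, CDH22 and CDH24 were well above background in all 24 channel values, and their 9 mean ratios ran from -0.76 to 0.98 with none called. CDH8, CDH9, CDH10 and CDH20 were not well above background in any. CDH3, CDH12, CDH18 and CDH19 were so in part of the channel values. The median log2 ratio of the tested genes of this list was 0.07 over 4 genes (KD1 vs CON), -0.37 over 4 (KD1 vs WT) and 0.02 over 5 (WT vs CON), the last 2 being -0.64 and 0.06 without WT replicate 2. Of the more distant CDH16, CDH17, CDH23 and CDH26, only CDH26 was tested, in 2 comparisons, and it was not called.

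The catenins and junction partners, through which a classical cadherin holds the cytoskeleton, did not pass the test in any comparison. Of 17 genes, 13 were well above background in all 24 channel values: CTNNB1, JUP, CTNNA1, CTNND1, ARVCF, PKP4, VCL, PTPN1, PTPRM, IQGAP1, RHOA, RAC1 and CDC42. The median log2 ratio was -0.02 over 13 tested genes (KD1 vs CON), -0.09 over 13 (KD1 vs WT) and -0.01 over 14 (WT vs CON), the last 2 being -0.24 and 0.03 without WT replicate 2. CTNNB1 (beta-catenin), which binds the cadherin tail, gave 0.14 and -0.14 for KD1 against CON, -0.33 and -0.68 for KD1 against WT, and 0.47 and 0.35 for WT against CON. The lowest mean of the list was that of IQGAP1, a scaffold that binds beta-catenin, with -1.10 and -0.77 in KD1 vs WT (limma adjusted p = 0.164). CTNNA2, the neural alpha-catenin, was well above background in 1 of the 24 channel values, and CTNNA3 and AJAP1 in none.

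The transcription factors that repress or switch cadherin genes were likewise not called, 0 of 7 tested in KD1 vs CON and 0 of 8 in each of the other comparisons. SNAI1, SNAI2, SNAI3, ZEB1, ZEB2, TCF3 and FOXC2 were well above background in all 24 channel values. The list median was -0.23 (KD1 vs CON), -0.15 (KD1 vs WT) and -0.08 (WT vs CON), the last 2 being 0.09 and -0.14 without WT replicate 2. SNAI1, a repressor of CDH1, had the lowest mean in KD1 vs CON with -1.54 and -0.43 (SD 0.79, limma adjusted p = 0.162). ZEB2 gave -0.39 and -0.79 against CON and -0.31 and -0.90 against WT (adjusted p = 0.224 and 0.230).

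Of 12 genes of myoblast contact and fusion, 11 had a probe by the names searched, 10 were tested in each comparison and none was called. The median log2 ratio was -0.26 (KD1 vs CON), -0.28 (KD1 vs WT) and 0.10 (WT vs CON), the last 2 being -0.54 and 0.37 without WT replicate 2. CDON and BOC, surface receptors that form complexes with cadherins in myoblasts, had values below 0 in both KD1 comparisons: CDON gave -0.65 and -0.70 against CON and -1.04 and -0.56 against WT. BOC gave -0.74 and -1.29 against CON and -0.84 and -0.70 against WT. For neither gene did an adjusted p from limma reach the threshold (0.168 and 0.137 for CDON, 0.120 and 0.223 for BOC), and both genes were picked after their values were seen. At an unadjusted p under 0.05, 4 of the 10 genes passed with KD1 against CON, 3 with KD1 against WT and 1 with WT against CON, where 17.2%, 17.2% and 16.5% of all tested probes did. The 4 were CDON, BOC and JAM3 (-0.85 and -0.83, limma adjusted p = 0.0900) and, in the other direction, NEO1 (0.74 and 0.73).

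The proteases that cut cadherin ectodomains or tails gave no call among 5 tested genes in any comparison. ADAM10, the sheddase of CDH1 and CDH2, had -0.29 and -0.16 against CON and -0.53 and 0.17 against WT in KD1. ADAM17 had the highest mean of the list in KD1 vs CON, at 0.53 and 1.13 (limma adjusted p = 0.166), with -0.29 and 0.59 against WT. ADAM15 had the highest in WT vs CON, at 0.59 and 0.71 (limma adjusted p = 0.171). The list median was 0.29 (KD1 vs CON), -0.15 (KD1 vs WT) and 0.33 (WT vs CON), the last 2 being -0.35 and 0.59 without WT replicate 2. MMP3 stayed at background throughout.

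**Figure D4:**
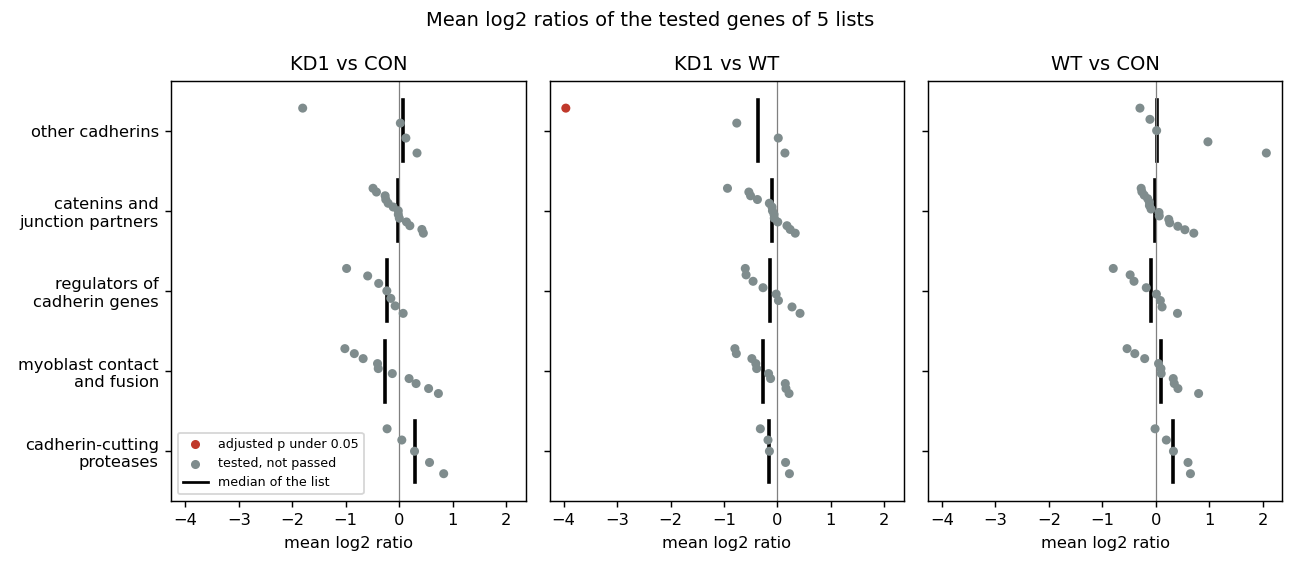
Mean log2 ratio of each tested gene in 5 lists of cadherin biology, one panel per comparison, with the list median as a black line and the gene past an adjusted p of 0.05 in red. The red point is CDH6 in KD1 vs WT at -3.96, and no gene of the other 4 lists passed in any of the 3 comparisons.

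Among the epithelial markers, the tight-junction gene CLDN4 was the 1 gene of 7 that passed the test. Its log2 signal was 8.43 and 8.95 in KD1, 6.39 and 6.31 in CON, and 8.62 and 7.78 in WT, so the CON extracts lay below all others. KD1 vs CON was 2.09 and 2.44 (mean 2.26 ± 0.25, SD, n = 2, limma adjusted p = 0.0166), a call lost with normexp and loess (mean 1.07, adjusted p = 0.121). It was also lost without CON replicate 2 but kept without KD1 replicate 2, and both fits left only the 2.09 of replicate 1. WT vs CON was 2.12 and 1.65 (mean 1.89 ± 0.33, limma adjusted p = 0.0380). Without any 1 of the 4 WT and CON extracts, only 1 of these ratios remained. The call was then lost, but 1 ratio cannot show that it rests on a given extract. With all extracts kept, the WT vs CON call was lost with normexp and loess (limma adjusted p = 0.158) and with 3 residual degrees of freedom (0.0806). It was also lost with no filter (0.0832), without the replicate block (0.0822) and in the extract fit with the block (0.0858). The median ratio of the tested epithelial markers was 0.17 over 3 genes (KD1 vs CON), -0.17 over 4 (KD1 vs WT) and 0.93 over 5 (WT vs CON). Without WT replicate 2, the extract with the high EPCAM and KRT19 signals, the last 2 medians were -0.11 and 0.017. CON was the lowest culture in CLDN4 as in CDH2 and CDH13, but not in CDH15, and in CDH11 it was the highest. The share of all probes with CON lowest was not computed, so this likeness is no result on its own. RNA of a bulk culture was measured, so fewer cells that express a gene and less RNA per cell cannot be told apart.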

How the data were processed

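The authors extracted the arrays with Agilent Feature Extraction 10.5.1.1 (per the labels) and deposited linear intensity values per spot, with processed signals after background subtraction and lowess within the array, a log10 ratio of red over green, and a series table of the same ratio on the log2 scale. Each sample column of that table belongs to 1 of the 12 arrays. Probe positions are those of the deposited files, on build NCBI36.

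Log2 ratios of the processed signals were turned to the first culture of each comparison, averaged over spots without outlier flags (95 to 188 flagged per array; 0 saturated) and over the dye-swap pair. Probes were tested where at least 1 channel exceeded the 99th percentile of the negative controls on every array of the comparison. limma 3.58.1 (R 4.3.3; lmFit, eBayes) was run on the 6 replicate ratios, taking 2 residual degrees of freedom, since the 3 ratios of a replicate come from 3 extracts. Benjamini-Hochberg adjustment was made over all probes tested, with a threshold of 0.05. Log2 signals per extract are separate-channel values after Aquantile scaling. KD1 arrays of a replicate share a slide, so their replicate values are values within a slide, and all WT vs CON arrays share another. The fit was tested on simulated data.

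Members and lists were chosen with earlier results of these data known. Each list gene is given by its brightest probe. Named were all member probes, list genes past the threshold (at most 4 a list), the 3 genes nearest to each tested member, PAX3 and FOXO1, and, chosen after their values were seen, the further list genes for which ratios are given. The lists were other type I and II cadherins, other superfamily members, catenins and junction partners, regulators of cadherin genes, myoblast contact and fusion, cadherin-cutting proteases, and myogenic, epithelial and endothelial markers. The number of arrays limits the precision. Python 3.11.15 with numpy 2.4.6, pandas 2.3.3 and matplotlib 3.10.9 was used.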

Additional observations from a re-analysis of the deposited data

How the results depend on the processing

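With 2 replicates per comparison and 6 extracts, the number of arrays limits what can be called. The count of all probes called (393 for KD1 vs CON, 261 for KD1 vs WT, 365 for WT vs CON) became 26, 1 and 2 with normexp and loess, 1015, 959 and 1025 with median centring, where every probe of a comparison received the same SE, and 254 (KD1 vs CON) and 200 (WT vs CON) with no filter. The replicate number pairs the extracts through the arrays, so the main ratios are within replicates; separate-channel values without the replicate block gave 202, 126 and 114 calls and an extract fit with the block 161, 107 and 131, and neither called a cadherin member. With 3 residual degrees of freedom the counts were 151 (KD1 vs WT) and 233 (WT vs CON), and 1 member probe was called in WT vs CON, CDH13 (adjusted p = 0.0483). Leaving out each extract gave 114 to 462 calls for KD1 vs CON (lowest without CON replicate 2), 21 to 531 for KD1 vs WT (lowest without WT replicate 1) and 4 to 946 for WT vs CON (lowest without WT replicate 1). Counts moved by over 1.5 times without KD1 replicate 2 (249) or CON replicate 1 (181) for KD1 vs CON, without WT replicate 2 (36) for KD1 vs WT, and without WT replicate 2 (5) or either CON extract (108) for WT vs CON; the highest counts were without KD1 replicate 1 and, for WT vs CON, equally without KD1 replicate 2. It gave 0 to 1 member probes in WT vs CON, the 1 being CDH13 without either KD1 extract (adjusted p = 0.0467), while without either CON extract the adjusted p was 0.726 and 0.454. Of 168 recomputed ratios of the 4 tested members, 157 kept their direction and their side of the threshold, 3 (CDH13 in WT vs CON) passed it and 8 turned. Many of these could not turn. The series table, the degrees of freedom, the filters and leaving out a culture outside the comparison keep the ratio itself. Only the p-value can change there, so the 157 overstates how stable the directions are. The same holds for the other genes run through the settings. Leaving out an extract moved CDH15 between -0.78 and 0.15 in KD1 vs WT and between -0.27 and 0.63 in WT vs CON, and CDH2 between -0.48 and 0.071 in KD1 vs WT, each range ending in the value of 1 replicate. Median centring turned CDH2 in KD1 vs CON to -0.018 and CDH15 in WT vs CON to -0.10, and PAX3 and FOXO1 in WT vs CON to -0.15 and -0.078; the cause was not tested. The settings were also run for CDH6, CLDN4, MYOG, PAX3 and FOXO1, a choice made after seeing the data: leaving out an extract moved CLDN4 in KD1 vs WT between -0.26 and 1.15, PAX3 in WT vs CON between -0.18 and 0.22, and FOXO1 in WT vs CON between -0.29 and 0.57. Of 126 values of CDH6, CLDN4 and MYOG, 20 lost a call, 8 gained one, 2 turned and 96 did neither. CDH6 lost its call in KD1 vs WT under 3 settings, CLDN4 its call in KD1 vs CON under 2 and in WT vs CON under 9, and MYOG its call in WT vs CON under 6. List medians without WT replicate 2 were likewise added after seeing the data. They are medians of the replicate 1 ratios, so KD1 or CON replicate 2 is left out as well. The mean over a gene's probes gave no other value than the brightest probe, because no member had a second tested probe.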
